A study of Mus musculus with 20 samples.

Results

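The genes of the proteasome, the protease that degrades ubiquitin-tagged proteins, were examined in total and polysome RNA of mouse liver. They were taken as the protein-coding genes whose symbol begins with Psma, Psmb, Psmc, Psmd, Psme, Psmf or Psmg and a number, without the interferon-induced Psmb8, Psmb9 and Psmb10 and without 4 pseudogenes. These were 47 of the 53028 genes in the table. They held 8 genes of alpha subunits and 8 of beta subunits of the catalytic core, and 6 of base ATPases. The 14 Psmd genes were of other parts of the regulatory particle, or of chaperones of its base (Psmd5, Psmd9 and Psmd10). The rest were 4 genes of activators, 4 of the Psmg assembly chaperones, the inhibitor Psmf1, the Psme2 copy Psme2b, and Psmc3ip. Psmc3ip is a meiotic recombination factor whose symbol fits the rule although it is no subunit. Livers came from male C57BL/6J mice that received 3 intraperitoneal injections of 3 mg/kg, every other day, of a locked nucleic acid (LNA, a stabilized antisense oligonucleotide) against GFP as control (mice 1, 2, 3, 8 and 9) or against SNORA73 (mice 4, 6, 10, 11 and 12). SNORA73 is a small nucleolar RNA needed for cleavage of ribosomal RNA precursors. The series design gives an age of 8 weeks and the methods for liver polysomes a slightly greater one. Each mouse gave 1 library of total RNA from the lysate and 1 of RNA from its polysome fractions, which hold mRNAs with several ribosomes. The study fed these mice chow. Its methods for liver polysomes add an injection of the drug cycloheximide into the tail vein shortly before death. All livers carried an LNA, so no untreated liver was compared. The labels write the target as Snora37, and a knockdown of the snoRNA cannot be checked in these polyadenylated libraries, where Snora73a and Snora73b each had at most 4 counts in any library and the host gene Snhg3 had 61 to 201 counts in total RNA, with overlapping groups.

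The proteasome is a barrel of stacked rings. The outer alpha rings gate the pore and the inner beta rings carry the proteolytic sites, made by Psmb5 (chymotrypsin-like), Psmb6 (caspase-like) and Psmb7 (trypsin-like). A regulatory particle of Psmc ATPases, which unfold substrates, and Psmd subunits, some of which bind ubiquitin or remove it, caps the barrel. Psme activators can take its place. Dedicated chaperones, among them Psmg1 to Psmg4, assemble the barrel. The complex is abundant in hepatocytes, and its genes are known to be induced together by the transcription factor Nfe2l1 when proteasome activity falls short.

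The libraries of total RNA held 20005389 to 42023390 estimated counts each, and those of polysomes 14852951 to 33824659. Values are CPM (counts scaled to a common library size) on a scale set by the trimmed mean of M values over the 20 libraries, and they measure a share of each library, so that fewer cells of a type and less RNA per cell cannot be told apart. Hepatocyte markers (Alb, Apoa1, Ttr, Cps1 and Cyp2e1) summed to 36846 to 69769 CPM. The summed level of 4 markers of sinusoidal endothelium was 69.0 to 78.8 CPM with the GFP LNA and 83.8 to 95.7 CPM with the SNORA73 LNA in total RNA, and 65.1 to 72.7 and 79.0 to 89.6 CPM in polysome RNA, without overlap. The other 6 marker lists, hepatocytes included, overlapped between the LNA groups in both RNAs. Mitochondrially encoded RNA made up 11.2% to 15.4% of total RNA libraries and 1.76% to 3.89% of polysome libraries. The part of these shifts in the results was not tested. Of the 47 genes, 45 passed the filter on low counts. Psmb11, the beta subunit of the thymus proteasome, with at most 7 counts in a library, and Psmc3ip, with at most 24, did not. Psma8, an alpha subunit of the testis, and Psme2b had at most 65 and 46 counts. Reads shared with similar transcripts (Psme2b with Psme2, perhaps Psma8 with Psma7) may have been split between them, so these values are uncertain. Shared reads were not counted.

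Proteasome transcripts were present at a higher share in polysome RNA than in total RNA. In the GFP LNA livers 35 of the 45 genes tested were higher in polysome RNA (edgeR quasi-likelihood test, FDR under 0.05), against 21.8% of all 13795 genes, and 1 was lower, against 21%. Their median log2 fold change was 0.60, and that of all genes was 0.03. In the SNORA73 LNA livers 33 were higher, against 19.7% of all genes, and 1 was lower, against 18.2%, with a median of 0.57 beside 0.02 for all genes. The 5 GFP LNA polysome values lay above all 5 total RNA values for 38 genes (17.9% of all genes), and the same held for 24 genes with the SNORA73 LNA (11.4% of all genes). In each mouse between 32 and 41 of the 45 genes were higher in the polysome library. The median polysome minus total difference per mouse, on the log2(CPM + 0.5) scale, was 0.52, 0.48, 0.51, 0.64 and 0.66 in GFP LNA mice 1, 2, 3, 8 and 9, and 0.45, 0.25, 0.59, 0.81 and 0.64 in SNORA73 LNA mice 4, 6, 10, 11 and 12. Mouse 6 had the lowest and mouse 11 the highest value.

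**Figure D1:**
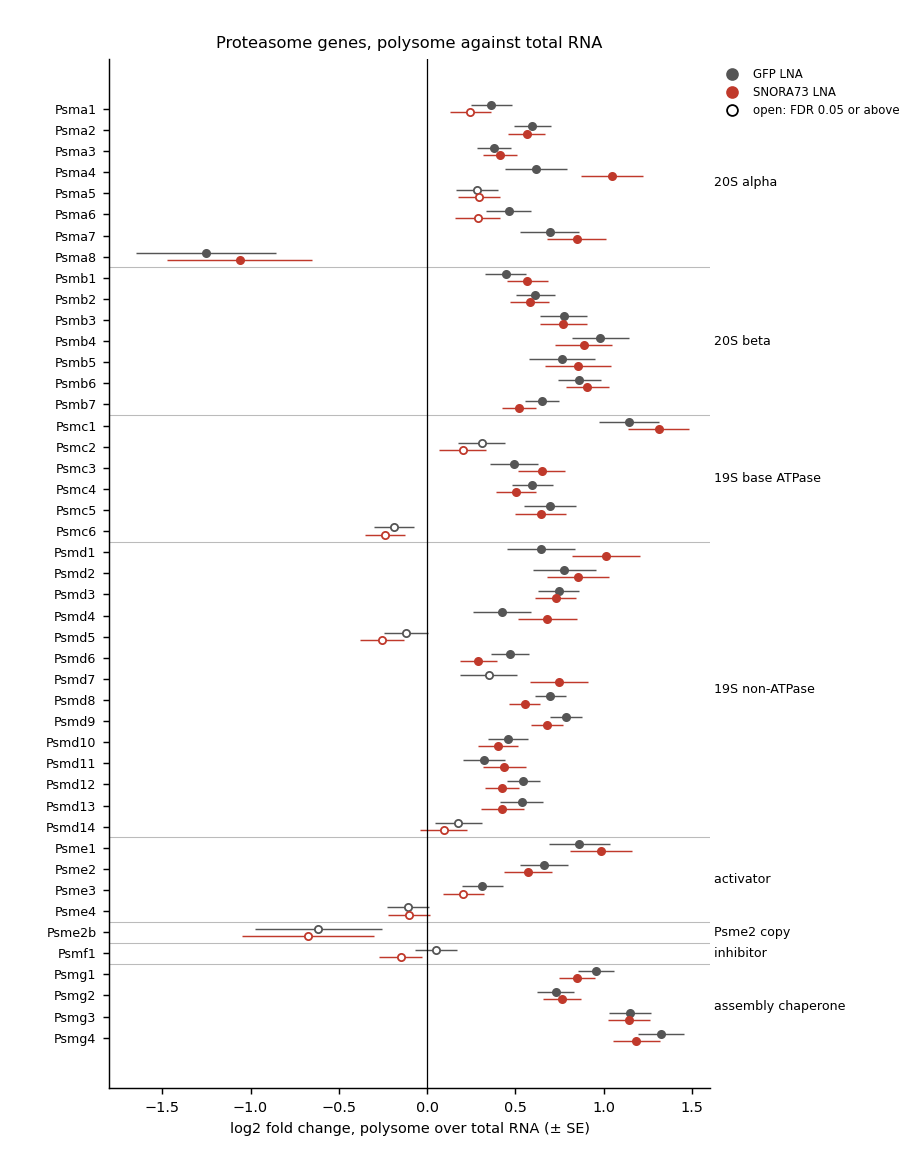
The log2 fold change of polysome over total RNA is plotted for the 45 genes tested, grouped by role, with the standard error as bars, in grey for the GFP LNA and red for the SNORA73 LNA, and with open symbols at an FDR of 0.05 or above. Most genes lie to the right of 0, with the chaperones Psmg1 to Psmg4 between 0.73 and 1.32. Psma8 lies to the left in both groups.

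The assembly chaperones Psmg1 to Psmg4, counted apart from the Psmd chaperones of the base, had the highest median of the roles. All 4 were higher in polysome RNA in both groups, with a median log2 fold change of 1.05 (GFP LNA) and 0.995 (SNORA73 LNA). Psmg4 (chr13:34162964-34178172), which acts with Psmg3 in building the alpha ring, had 6.36, 7.73, 7.03, 5.14 and 5.48 CPM in total RNA of GFP LNA mice 1, 2, 3, 8 and 9, and 17.3, 16.4, 15.9, 13.96 and 16.02 CPM in their polysome RNA. In SNORA73 LNA mice 4, 6, 10, 11 and 12 it had 7.09, 6.12, 5.82, 8.08 and 6.10 CPM in total RNA and 14.6, 12.6, 13.3, 17.2 and 17.6 CPM in polysome RNA. No total value reached a polysome value of its group, and the log2 fold changes were 1.32 ± 0.13 (SE; FDR = 1.56e-07) and 1.18 ± 0.13 (FDR = 9.59e-07). For its partner Psmg3 (chr5:139823613-139826894), total RNA ranged from 8.60 to 11.6 CPM and polysome RNA from 18.4 to 29.8 CPM over the 10 mice, again with no overlap (log2 fold change 1.15 ± 0.12 and 1.14 ± 0.12). The other chaperone pair, Psmg1 and Psmg2, differed by 0.96 ± 0.10 and 0.73 ± 0.11 with the GFP LNA and by 0.85 ± 0.10 and 0.76 ± 0.11 with the SNORA73 LNA.

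All 7 beta subunit genes tested were higher in polysome RNA in both groups, with a median log2 fold change of 0.76 and 0.77 and a range of 0.44 (Psmb1, GFP LNA) to 0.98 (Psmb4, GFP LNA). Psmb5 (chr14:54614120-54617995), the chymotrypsin-like site, had 65.9, 61.8, 57.9, 46.1 and 53.4 CPM in total RNA of the GFP LNA mice and 63.1, 77.7, 49.8, 78.6 and 66.4 CPM with the SNORA73 LNA. Its polysome values were 86.7, 85.8, 92.3, 108 and 112 CPM in the GFP LNA mice and 90.3, 75.6, 119, 173 and 149 CPM in the SNORA73 LNA mice. Total and polysome values were apart with the GFP LNA (0.76 ± 0.18, FDR = 0.00225) but overlapped with the SNORA73 LNA, through mouse 6 (0.85 ± 0.19, FDR = 0.00101). Psmb6 (chr11:70525324-70527858), the caspase-like site, had 109, 98.4, 96.3, 106 and 89.5 CPM in total and 195, 162, 161, 206 and 184 CPM in polysome RNA of the GFP LNA mice. With the SNORA73 LNA it had 101.7, 118, 105, 106 and 110.4 CPM in total and 161, 158, 214, 241 and 241 CPM in polysome RNA. The RNAs did not overlap in either group (0.86 ± 0.12 and 0.91 ± 0.12). Psmb7 (chr2:38588046-38643952), the trypsin-like site, had 116, 118, 114, 106 and 108 CPM in total and 167, 184, 169, 181 and 183 CPM in polysome RNA of the GFP LNA mice, and 102.2, 128, 103, 105 and 121 CPM against 148, 139, 160, 185 and 170 CPM with the SNORA73 LNA. It too showed no overlap (0.65 ± 0.10 and 0.52 ± 0.10).

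**Figure D2:**
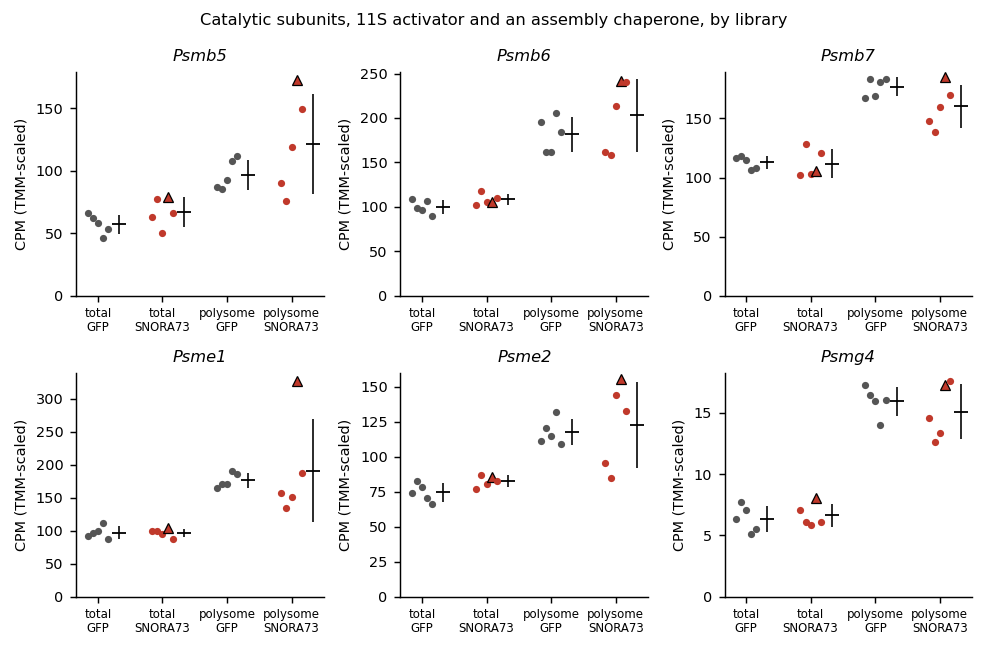
CPM of the catalytic subunits Psmb5, Psmb6 and Psmb7, the activator subunits Psme1 and Psme2 and the chaperone Psmg4 is plotted for each library in the 4 groups, with the mean and SD (n = 5) in black and mouse 11 as outlined triangles. The GFP LNA polysome values lie above the total values in all 6 panels, and mouse 11 is the highest polysome value of Psme1, at 327 CPM.

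The alpha subunits had a median of 0.42 with the GFP LNA, where 6 of 8 were higher in polysome RNA, and of 0.35 with the SNORA73 LNA, where 4 were. Psma7 (0.69 ± 0.17 and 0.85 ± 0.17) and Psma4 (0.62 ± 0.17 and 1.05 ± 0.17) had the largest values, and Psma5 was not called in either group (0.28 ± 0.12 and 0.29 ± 0.12) but was called in both when mice were fitted as blocks (FDR = 0.0320 and 0.0406). Psma8 was the exception: it was lower in polysome RNA with the GFP LNA (-1.25 ± 0.39, FDR = 0.0143) and with the SNORA73 LNA (-1.06 ± 0.41, FDR = 0.0474). It had 0.750 to 1.61 CPM in total and 0.260 to 0.704 CPM in polysome RNA of the GFP LNA mice, and 0.577 to 1.40 against 0.0717 to 0.803 CPM with the SNORA73 LNA, where the RNAs overlapped. The call with the GFP LNA was lost without mouse 8 (-1.14). That with the SNORA73 LNA was lost without any of mice 1, 3, 4, 6, 8, 9, 11 and 12, and reached -0.87 (FDR = 0.166) without mouse 11.

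Among the base ATPases 4 of 6 were higher in polysome RNA in each group. Psmc1 (chr12:100110202-100123364) had 203, 209, 190, 217 and 219 CPM in total and 463, 413, 379, 462 and 572 CPM in polysome RNA of the GFP LNA mice, and 228, 219, 225, 276 and 209 CPM against 499, 421, 476, 935 and 537 CPM with the SNORA73 LNA. No values overlapped between the RNAs (1.14 ± 0.17 and 1.31 ± 0.17). Psmc6, another ATPase of the same ring, was below 0 in both groups (-0.19 ± 0.11, FDR = 0.193, and -0.24 ± 0.11, FDR = 0.108), and Psmc2 was above 0 without a call (0.31 ± 0.13 and 0.20 ± 0.13), although the fit with mice as blocks called it with the GFP LNA (FDR = 0.0437).

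Of the 14 Psmd genes 11 were higher in polysome RNA with the GFP LNA and 12 with the SNORA73 LNA, with medians of 0.50 and 0.49. The scaffold subunits Psmd2 (0.78 ± 0.18 and 0.85 ± 0.18) and Psmd1 (0.64 ± 0.19 and 1.01 ± 0.19) and the ubiquitin receptor Psmd4 (0.42 ± 0.17 and 0.68 ± 0.17) were among them. So were Psmd9 and Psmd10, which are assembly chaperones of the base (0.79 ± 0.09 and 0.68 ± 0.09, and 0.46 ± 0.11 and 0.40 ± 0.11). Psmd5, another such chaperone, was not called (-0.12 ± 0.12 and -0.26 ± 0.13), nor was Psmd14, the deubiquitinase of the lid (0.18 ± 0.13 and 0.09 ± 0.13). When each mouse was fitted as a block, pairing its libraries, 37 genes were higher and 3 lower with the SNORA73 LNA, where the calls over all genes also rose in number, to 26% higher and 25.1% lower. All 33 genes called without the block remained, and the lower genes were Psma8, Psmc6 (-0.24 ± 0.08, FDR = 0.0254) and Psmd5 (-0.27 ± 0.09, FDR = 0.0186), the last pair named after their values were seen. The genes gained as higher were Psma1, Psma5, Psma6 and Psme3 with the SNORA73 LNA and Psma5, Psmc2 and Psmd7 with the GFP LNA, where 38 were higher and 1 lower, beside 28.9% and 27.2% of all genes. Without mouse 11, edgeR called 32 genes higher and 0 lower with the SNORA73 LNA, beside 16.6% and 15.7% of all genes. At an unadjusted p under 0.05 in that fit 2 were lower. How many of all genes reached that p there was not counted, so the 2 are not read as a result. Over all mice DESeq2 and limma-voom called 1 and 0 lower, beside 19.9% and 18.3% of all genes.

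The activators Psme1 (chr14:55578494-55581527) and Psme2 (chr14:55587440-55591101), neighbours 5913 bp apart whose products form 1 ring, were both higher in polysome RNA. Psme1 had 91.7, 96.1, 98.8, 112 and 86.8 CPM in total and 164, 171, 171, 191 and 186 CPM in polysome RNA of the GFP LNA mice, and 99.0, 99.2, 95.0, 103 and 86.8 CPM against 157, 134, 151, 327 and 187 CPM with the SNORA73 LNA (0.86 ± 0.17 and 0.98 ± 0.17). Psme2 had 74.2, 82.9, 78.5, 70.6 and 65.9 CPM in total and 111, 121, 115, 132 and 109 CPM in polysome RNA of the GFP LNA mice, and 76.8, 86.9, 80.8, 85.8 and 82.5 CPM against 95.6, 85.0, 144, 155 and 133 CPM with the SNORA73 LNA (0.66 ± 0.14 and 0.57 ± 0.14). The polysome value of mouse 6 made the Psme2 groups overlap with the SNORA73 LNA. The nuclear activator Psme3 was called with the GFP LNA (0.31 ± 0.12, FDR = 0.0347) and not with the SNORA73 LNA (0.20 ± 0.12, FDR = 0.177), where the fit with mice as blocks called it (0.20 ± 0.07, FDR = 0.0304). The interaction test did not call this difference. Psme4, a larger activator, was near 0 (-0.11 ± 0.12 and -0.10 ± 0.12), as was Psmf1 (0.05 ± 0.12 and -0.15 ± 0.12). Psme2b had -0.62 ± 0.36 (FDR = 0.177) and -0.67 ± 0.38 (FDR = 0.167), from at most 1.83 CPM.

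Related genes outside the rule did not all show this direction. The immunoproteasome subunits Psmb8, Psmb9 and Psmb10 were all higher in polysome RNA in both groups (0.48 to 0.91 with the GFP LNA). Of 5 matched subunits and assembly factors with other symbols 3 were higher in each group, among them the maturation factor Pomp (1.10 ± 0.10 and 1.09 ± 0.10) and the small subunit Sem1 (1.30 ± 0.10 and 1.17 ± 0.10). Of the enzymes that act on ubiquitin at the proteasome 2 of 3 were lower in both groups, Usp14 (-0.61 ± 0.12 and -0.52 ± 0.12) and Ube3c (-0.34 ± 0.12 and -0.36 ± 0.12). Of 10 shuttle and extraction factors 2 were higher and 4 lower with the GFP LNA and 3 higher and 4 lower with the SNORA73 LNA. The lower ones in both were Rad23b, Ubqln1, Ubqln2 and Zfand5. A list of transcription factors and a processing enzyme held 3 genes. Of these Nfe2l1 was higher (0.80 ± 0.22 and 1.18 ± 0.22). The factor Nfe2l2 (-0.56 ± 0.17 and -0.62 ± 0.17) and the enzyme Ngly1 (-0.49 ± 0.17 and -0.64 ± 0.17) were lower. Of 4 ubiquitin genes 3 were higher in each group. The E1 enzymes split, with Uba1 higher (0.52 ± 0.10 and 0.38 ± 0.10) and Uba6 lower (-1.10 ± 0.17 and -0.94 ± 0.17). As other multi-subunit complexes, the CCT chaperonin had 3 of 8 genes higher and 0 lower with the GFP LNA (median 0.24). By an unadjusted p under 0.05 (edgeR), 4 of the 8 differed there. Of all 13795 genes, 3545 were higher and 3348 lower at that p, so nothing is read from the 4. With the SNORA73 LNA the chaperonin had 1 higher and 1 lower (median 0.18). The COP9 signalosome, a relative of the proteasome lid, had 5 of 9 higher and 1 lower (median 0.43), and 3 higher and 1 lower (median 0.11). The difference between these complexes and the proteasome was not tested.

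The comparison of the LNAs asked whether loss of SNORA73 changed proteasome transcripts. In total RNA 0 of the 45 genes were called by edgeR (lowest FDR = 0.464), which called 0.0303% of all 13195 genes in either direction. By limma-voom 0 were called too, beside 0.0379% of all genes, and by DESeq2 0, beside 0.371% of all genes higher and 0.197% lower. By edgeR without adjustment, at a p under 0.05, there was 1 proteasome gene of 45, against 8.65% of all genes. The median log2 fold change was 0.03, beside 0.01 for all genes, and ranged from -0.27 to 0.23. For 0 genes did the groups not overlap, against 1.84% of all genes. The gene with the low unadjusted p was Psmg2, with 15.0, 15.3, 16.6, 14.54 and 13.6 CPM in the GFP LNA mice and 13.3, 12.9, 11.2, 10.7 and 14.1 CPM in the SNORA73 LNA mice (-0.27 ± 0.10, edgeR FDR = 0.464). Its groups overlapped through mice 9 and 12. The highest values were those of Psmb5 (0.23 ± 0.14, FDR = 0.696) and Psmd7 (0.23 ± 0.11, FDR = 0.612). Psmd7 had 78.3, 81.9, 75.7, 84.1 and 83.0 CPM with the GFP LNA and 92.7, 89.1, 99.2, 116 and 75.4 CPM with the SNORA73 LNA, overlapping through mouse 12. Psma8 had -0.17 ± 0.29. The other catalytic and activator genes had 0.12 ± 0.09 (Psmb6), -0.01 ± 0.09 (Psmb7), -0.01 ± 0.09 (Psme1) and 0.15 ± 0.09 (Psme2).

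In polysome RNA 0 of the 45 genes were called by edgeR (lowest FDR = 0.215) and 0 by limma-voom, each beside 0.0153% of all 13060 genes. DESeq2 called 0 as well, with no adjusted p for 2 of the 45, where it called 1.77% of all genes higher and 0.383% lower. By edgeR without adjustment, at a p under 0.05, there were 4 of 45, against 13.4% of all genes. The median log2 fold change was -0.02 (-0.01 for all genes), and 20 genes were above 0 and 25 below. Its sign turned on single mice: it was -0.07 with 14 genes above 0 without mouse 11 and 0.05 with 27 above 0 without mouse 6. Psmd7 (chr8:107580380-107588482), a lid subunit that pairs with the deubiquitinase Psmd14, had 114, 97.0, 93.0, 105 and 104 CPM in the GFP LNA mice and 135, 114, 150, 254 and 138 CPM in the SNORA73 LNA mice. It was the 1 gene whose groups did not overlap, as for 3.23% of all genes, and the gap was between 114.28 CPM in mouse 1 and 114.32 CPM in mouse 6. Its log2 fold change was 0.62 ± 0.19 (FDR = 0.215) and was 0.40 ± 0.12 (FDR = 0.248) without mouse 11. When all 20 libraries were fitted together it was called (0.62 ± 0.16, FDR = 0.0453), the 1 gene of 45 in a fit that called 1.75% of all genes higher and 0.544% lower.

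The other genes with an unadjusted p under 0.05 overlapped between the groups. Psmd1 (chr1:86064619-86139295) had 307, 229, 213, 281 and 305 CPM with the GFP LNA and 316, 288, 376, 707 and 331 CPM with the SNORA73 LNA (0.60 ± 0.23, FDR = 0.297). Psma4 (chr9:54950781-54958034), an alpha subunit, had 357, 303, 261, 317 and 332 CPM and 376, 353, 385, 768 and 420 CPM (0.55 ± 0.21, FDR = 0.282). In both genes mouse 11 stood far above the other 4 SNORA73 LNA mice. Without mouse 11 the differences were 0.31 ± 0.15 (FDR = 0.468) for Psmd1 and 0.30 ± 0.12 (FDR = 0.413) for Psma4. The inhibitor Psmf1 (chr2:151716062-151744199) had 16.9, 17.0, 19.6, 20.7 and 19.2 CPM with the GFP LNA and 15.2, 15.2, 17.1, 11.1 and 17.3 CPM with the SNORA73 LNA (-0.30 ± 0.14, FDR = 0.362), and mouse 11 was its lowest value. Psma1 was next lowest, at -0.25 ± 0.13. It had 163, 146, 137, 167 and 136 CPM and 107, 139, 152, 109 and 126 CPM. The catalytic genes had 0.33 ± 0.21 (Psmb5), 0.16 ± 0.15 (Psmb6) and -0.14 ± 0.12 (Psmb7), and Psme1 and Psme2 had 0.11 ± 0.21 and 0.06 ± 0.17.

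**Figure D3:**
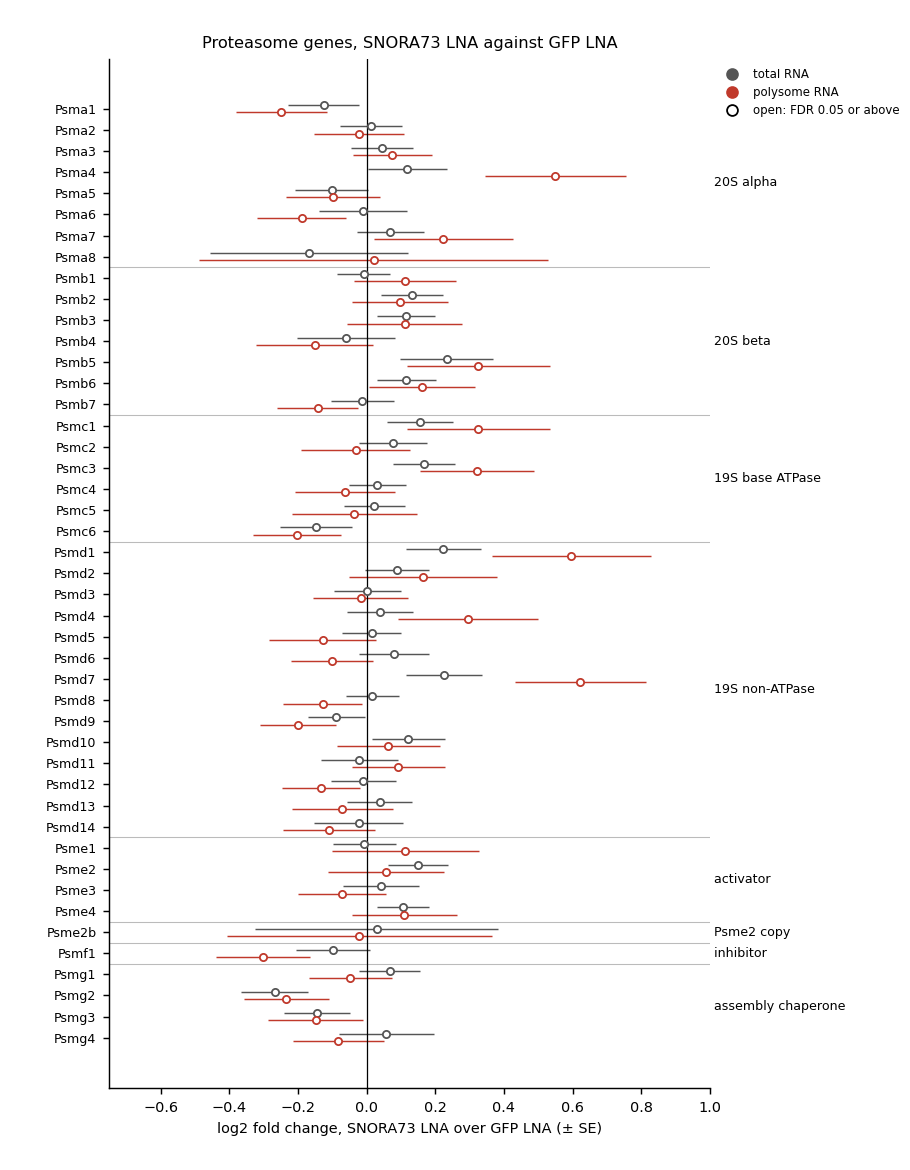
The log2 fold change of the SNORA73 LNA over the GFP LNA is plotted for the 45 genes by role, in grey for total and red for polysome RNA, with the standard error as bars. All symbols are open, since no gene had an FDR under 0.05, and Psmd7, Psmd1 and Psma4 lie farthest to the right in polysome RNA, at 0.62, 0.60 and 0.55.

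**Figure D4:**
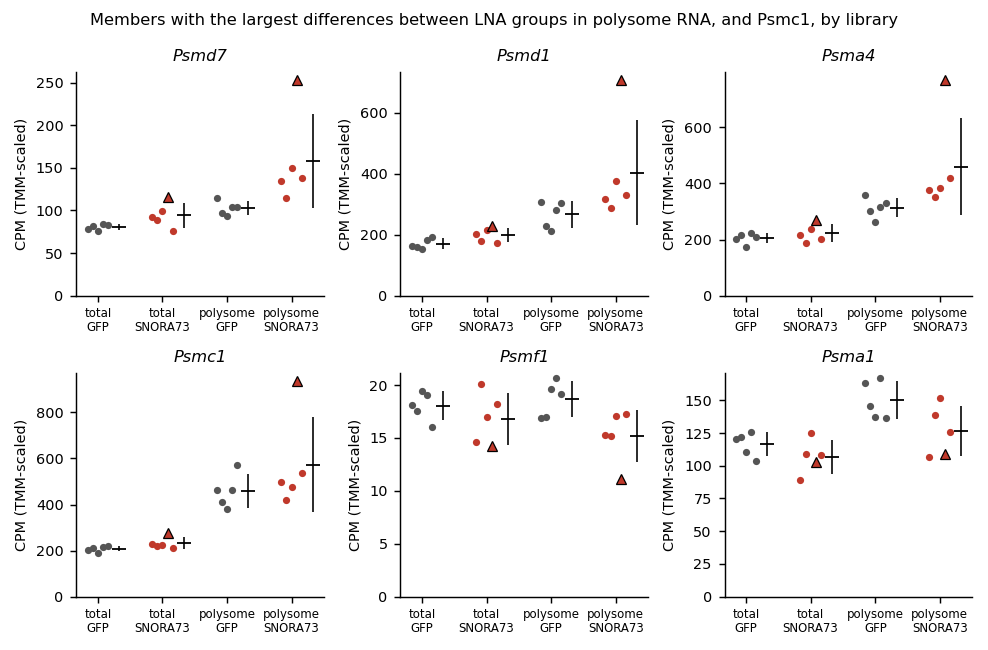
CPM is plotted by library for Psmd7, Psmd1, Psma4, Psmc1, Psmf1 and Psma1, with the mean and SD (n = 5) in black and mouse 11 as outlined triangles. Mouse 11 is the highest polysome library in the first 4 panels, at 935 CPM for Psmc1, and the lowest for Psmf1, at 11.1 CPM.

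The interaction test asked whether the difference between LNAs was unlike in polysome and total RNA. With edgeR it called 0 of the 45 genes (lowest FDR = 0.9999; 0 genes at an unadjusted p under 0.05), where 0.00725% of all 13795 genes were called and 2.91% had an unadjusted p under 0.05. By limma-voom 0 of all genes were called, and DESeq2 called 0 of the 45 genes, beside 5 of all genes higher and 2 lower. The median was -0.03, and it was -0.09 without mouse 11 and 0.06 without mouse 6. The extreme values were 0.43 ± 0.24 for Psma4, 0.40 ± 0.23 for Psmd7, -0.20 ± 0.17 for Psmf1 and -0.18 ± 0.15 for Psmd6, a lid subunit with 49.3 to 54.2 and 47.1 to 63.6 CPM in total and 60.2 to 78.2 and 62.3 to 80.7 CPM in polysome RNA of the GFP and SNORA73 LNA mice. Without mouse 11 the values were 0.25 ± 0.15 for Psma4 and 0.25 ± 0.14 for Psmd7, without mouse 6 that of Psmf1 was -0.13, and without mouse 12 that of Psmd6 was -0.11. When mice were fitted as blocks edgeR called 0 of the 45 genes, beside 0.00725% of all genes higher and 0 lower. Of the 45 genes 2 had an unadjusted p under 0.05 in that fit. The share of all genes at that p was not counted there, so nothing is read from it.

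The polysome library of mouse 11 stood apart for these genes. Of the 45 genes 27 had their highest polysome value there, against 20.4% of all genes, and 8 were at least 1.5 times the next highest mouse, against 5.49% of all genes. These 8 were Psmd1 (707 CPM, next 376), Psma4 (768, next 420), Psme1 (327, next 191), Psmd7 (254, next 150), Psmd2 (422, next 258), Psmc1 (935, next 572), Psma7 (362, next 236) and Psmd4 (234, next 154). They include genes of alpha subunits, an ATPase, other parts of the regulatory particle and an activator, and none of a beta subunit. Other members were low in this library: Psmd5 had 13.9 CPM, against 16.7 to 24.2 CPM in the other mice, and Psmf1 11.1 CPM. The summed level of the 47 genes was 8252 CPM in mouse 11, against 4792 to 6006 CPM in the other 9 polysome libraries and 3500 to 3929 CPM in total RNA, where mouse 11 had the highest sum. Nfe2l1 was also highest there (274 CPM, against 90.1 to 133 CPM in the other polysome libraries). In total RNA it was highest in mouse 11 too (86.1 CPM, against 51.3 to 75.5 CPM). Its product activates transcription of proteasome genes, but a link to the values of this library was not tested. Depth in this library was 20797922 counts, within the range of the others, and its mitochondrial share was 2.48%.

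**Figure D5:**
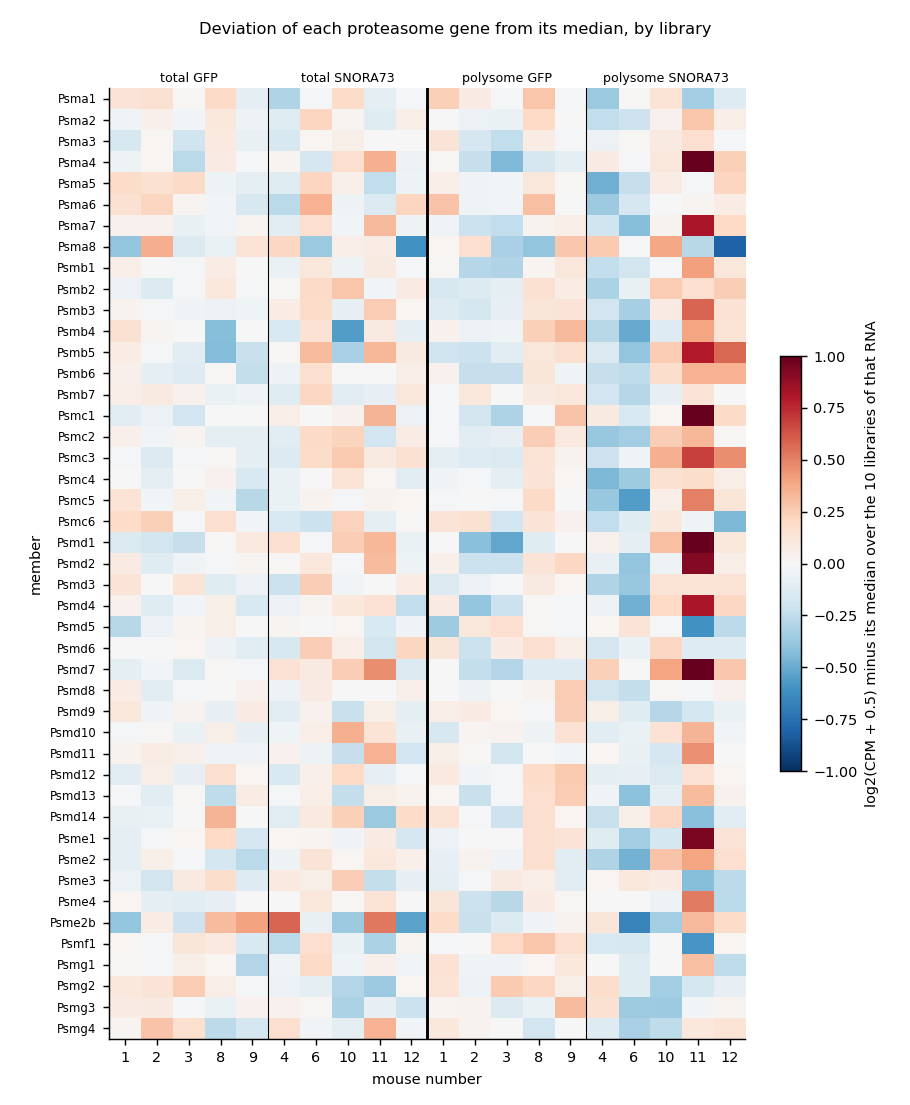
The log2(CPM + 0.5) of each gene minus its median over the 10 libraries of the same RNA is shown by colour, from blue (-1) to red (1) with larger values clipped, with libraries ordered by group and mouse. The column of mouse 11 in polysome RNA is above the median for 32 of the 45 genes tested and blue for Psmd5 and Psmf1.

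As examples, promoters are shown for some of the genes that stood out together in mouse 11. That of the chaperone Psmg1, which stayed below 1.5 times the next mouse, is shown beside them. RefSeq promoter windows of GRCm38.p6, from 250 bases before to 50 after the start, were matched for 39 of the 47 genes. The sequence CCGGAAG is of the type bound by ETS transcription factors. It occurred on either strand in 15 of 39 (38.5%), against 12.9% of 17492 protein-coding genes. Psmc3ip, which is no subunit, was among the 15. The core of the antioxidant response element, TGACNNNGC, to which Nfe2l1 and Nfe2l2 bind, occurred in 6 (15.4%), against 14.8%, and among these were Psmb5 and Psmb6. CCAAT occurred in 14 (35.9%), against 42.3%. None of these motifs contains another. The 100 bases before the start lie at chr12:100110102-100110201 (plus strand) for Psmc1, chr16:95990961-95991060 (minus strand) for Psmg1, chr1:86064519-86064618 (plus strand) for Psmd1 and chr14:55578394-55578493 (plus strand) for Psme1, and capitals mark CCGGAAG or its reverse complement.
Psmc1: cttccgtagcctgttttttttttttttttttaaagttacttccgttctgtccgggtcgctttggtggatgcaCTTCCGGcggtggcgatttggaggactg
Psmg1: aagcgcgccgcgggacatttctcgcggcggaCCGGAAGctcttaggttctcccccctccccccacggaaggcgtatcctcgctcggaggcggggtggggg
Psmd1: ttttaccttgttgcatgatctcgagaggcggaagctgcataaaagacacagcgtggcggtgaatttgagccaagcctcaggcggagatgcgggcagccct
Psme1: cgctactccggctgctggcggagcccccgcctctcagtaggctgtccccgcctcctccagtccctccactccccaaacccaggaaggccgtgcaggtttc
Psmc1 and Psmg1 hold the motif within these 100 bases, and Psmd1 and Psme1 do not. Psmc1, Psmd1 and Psme1 were all more than 1.5 times the next mouse in polysome RNA of mouse 11. A link between the motif and the values of that library was not tested. Among the other genes that stood out there, Psmd2 held it within its 100 bases, and Psma4, Psma7 and Psmd4 did not. Psmd4 held it elsewhere in its longer window and was among the 15. The 100 bases of Psmd2 and of Psma4 overlap the annotated gene. A match of letters is a description and says nothing of binding.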

How the data were processed

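The deposited table holds estimated counts per Ensembl gene for 20 libraries. The authors selected polyadenylated RNA, sequenced paired 100 bp reads, filtered them with fastp (Phred at least 15), removed rRNA reads with bowtie, quantified Ensembl 102 transcripts with kallisto 0.46.2 and summed them with tximport. The strand setting of kallisto is not given in the sources used here. kallisto splits reads among compatible transcripts, so copies are uncertain.

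Counts were rounded to whole numbers and symbols matched for 51903 of 53028 genes. Low genes were dropped unless 4 or more libraries exceeded 0.5 CPM, and the rest went into the edgeR 4.0.16 quasi-likelihood test (R 4.3.3, TMM, Benjamini-Hochberg adjustment over all genes, called at FDR under 0.05). The LNA comparisons were fitted in each RNA apart, and polysome against total RNA and the interaction over the 20 libraries without a mouse term. All 10 mice entered. The study used 4 mice per group without naming the others. The replicates are separate mice. Alternatives were limma-voom (limma 3.58.1), DESeq2 1.42.0, its size factors, library totals, 2 other filters, mice left out, a single fit and the mouse as a replicate block. The mouse number pairs the libraries because both come from 1 animal. Their deviations from group means correlated at 0.146 to 0.694 within a mouse. For 9 of the 10 mice the total library correlated best with the polysome library of the same number. That of mouse 6 (0.146) correlated best with the polysome library of mouse 12, and mouse 6 was fitted as labelled.

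The genes named with all values were Psmb5, Psmb6, Psmb7, Psme1 and Psme2 and, in each comparison, the 2 highest and 2 lowest log2 fold changes among members tested. Members and lists were chosen with earlier results of these data known. The tests were checked on simulated counts. Levels were not compared between genes.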

Additional observations from a re-analysis of the deposited data

Results flagged for a closer look

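For 17 named genes, each in 4 groups of 5 mice (68 sets of values), 8 values stood apart from the other 4 mice. The gap to the nearest mouse was over 0.71 of the range of the group, Dixon's 95% limit for 5 values. Most of these genes were named for large differences in the same data, and 1 library gave several of the 8 values. The sets are thus not independent, and the 8 values cannot be set against a number due to chance. Of these 8, 5 were from polysome RNA of SNORA73 LNA mouse 11: Psma4 (768 CPM, nearest 420), Psmd1 (707 CPM, nearest 376), Psmc1 (935 CPM, nearest 537), Psmd7 (254 CPM, nearest 150) and Psme1 (327 CPM, nearest 187). Psmc1 in total RNA of mouse 11 (276 CPM, nearest 228) was another. The remaining ones were both of Psmd6 in polysome RNA, low in GFP LNA mouse 2 (60.2 CPM, nearest 73.2) and high in SNORA73 LNA mouse 10 (80.7 CPM, nearest 67.0).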

How the results depend on the processing

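The higher share of proteasome transcripts in polysome RNA held under every alternative run. With the GFP LNA 31 to 38 genes were higher, beside 8.37% to 28.9% of all genes. With the SNORA73 LNA 31 to 37 were higher, beside 7.55% to 26% of all genes. The number lower depended on settings, beside 9.49% to 27.2% of all genes (GFP LNA) and 7.83% to 25.1% (SNORA73 LNA). With the GFP LNA it was 0 with a CPM above 1 in every library, which drops Psma8, and 0 to 1 without each mouse in turn. With the SNORA73 LNA it was 0 with limma-voom, library totals or no filter, 2 (Psmc6 and Psmd5) with a CPM above 1, 3 with the replicate block, and 0 to 1 without each mouse in turn. The block lost no call, and it gained higher calls for 3 genes with the GFP LNA and 4 with the SNORA73 LNA. It changed no call of the interaction.

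No member was called between the LNAs except under the single fit of 20 libraries, which had no mouse term. It called 1 higher in polysome RNA (Psmd7), beside 1.75% of all genes higher and 0.544% lower. Scaling to library totals moved the median of all genes to -0.14 in total and -0.17 in polysome RNA, and that of the members to -0.11 and -0.19. It turned the signs, without a call, of Psmb6 (-0.027) in total RNA and of Psmb6 (-0.00937), Psme1 (-0.064) and Psme2 (-0.12) in polysome RNA. Without mouse 9 and mouse 10, Psmb7 was 0.0044 in total and Psme2 -0.030 in polysome RNA. Leaving out 1 mouse at a time gave ranges of -0.067 to 0.017 (Psmb7) and -0.052 to 0.041 (Psme1) in total RNA, -0.16 to 0.22 (Psme1) and -0.029 to 0.17 (Psme2) in polysome RNA, and -0.0070 to 0.28 (Psmb5), -0.032 to 0.16 (Psmb6), -0.14 to 0.24 (Psme1) and -0.18 to 0.036 (Psme2) in the interaction, none of them called. The causes were not tested. Levels per kilobase with transcript or coding length were not run, since lengths of transcripts were not used here. Depth limited Psma8, Psme2b, Psmb11 and Psmc3ip.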
